A study of Mus musculus with 47 samples.

Results

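Gastrocnemius muscle of tumour-bearing mice given the antibody 3P10 (5 libraries) was compared with gastrocnemius muscle of tumour-bearing mice given a control IgG1 (5 libraries). These 10 libraries, chosen by the tissue and group in their labels, were part of a series of 47, and all genes passing a low-count filter were tested. All mice were C57Bl6, both groups of this comparison had been inoculated with HT1080 cells, an established human fibrosarcoma line, and both antibodies were given once a week, 3 mg/kg a dose, starting on day 0, with tissue taken on day 21. The 5 NTB libraries, from mice with no tumour and no antibody or dose in their labels, are given as reference values. Sex, age and the immune status of the mice, which bore human cells, are not given in the sources used here. The labels describe separate samples but not separate litters, cages or days, so p-values measure the spread between these samples.

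GDF15 is a circulating factor that rises with tumours, tissue stress and some drugs. Its receptor GFRAL sits on neurons of the hindbrain, where it signals through the kinase RET and lowers food intake, and 3P10 is an antibody against GFRAL. In wasting muscle the stress hormone corticosterone acts through the glucocorticoid receptor and raises genes that slow protein synthesis and speed protein breakdown, while insulin and growth factor signalling act in the opposite direction. The question of the comparison was which muscle transcripts differ when the receptor antibody replaces the control antibody in a mouse with a tumour.

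The 15 muscle libraries held 24759436 to 33502175 counts, and 13283 of 24391 genes passed the low-count filter. A count of 0 in 1 library allows up to 3 counts, which is 0.0838 to 0.143 CPM (read counts scaled to library size) in the muscle libraries, counting error only. The first principal component of the 15 muscle libraries held 42.3% of the variance and set 4 of them apart, at 51.7 to 57.6 against -2.71 or lower for the other 11. These 4 are IgG1 replicates 2 and 4, 3P10 replicate 2 and NTB replicate 3, and they carry the library numbers 14 or higher. They make up 2 of the 5 IgG1 but 1 of the 5 3P10 libraries. Each result is therefore given from a fit with the 3 groups alone and from a fit that adds a term for a library number of 14 or higher, called the library number term below. That term alone was past an adjusted p of 0.05 for 7160 genes, 53.9% of those tested, and what the numbers stand for is not stated. Ribosomal protein genes moved with it most evenly, 45 of 46 higher in the 4 libraries with a median log2 difference of 1.21.

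With the groups alone, 28 genes differed between 3P10 and IgG1 at an adjusted p under 0.05, 12 higher (0.0903% of genes tested) and 16 lower (0.12%) in 3P10. With the library number term the count was 668 (5.03%), 338 higher (2.54%) and 330 lower (2.48%). All 28 genes of the first fit were among the 668, with the same sign in both. At least a 2-fold difference was reached by 20 of the 28 and by 83 of the 668. An unadjusted p under 0.05 was reached by 1430 of the 13283 genes with the groups alone and by 2950 with the term. DESeq2, another method, called 284 genes (119 higher, 165 lower) and 1104 genes (567 higher, 537 lower) in the same order. Without any test, the 5 values of 3P10 lay wholly above the 5 of IgG1 for 137 genes (1.03%) and wholly below for 187 (1.41%), and 212 of the 668 genes had groups that did not overlap. The glucocorticoid response genes Ddit4 and Cebpd fell furthest among the 28, and the forkhead gene Foxs1 rose furthest.

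**Figure D1:**
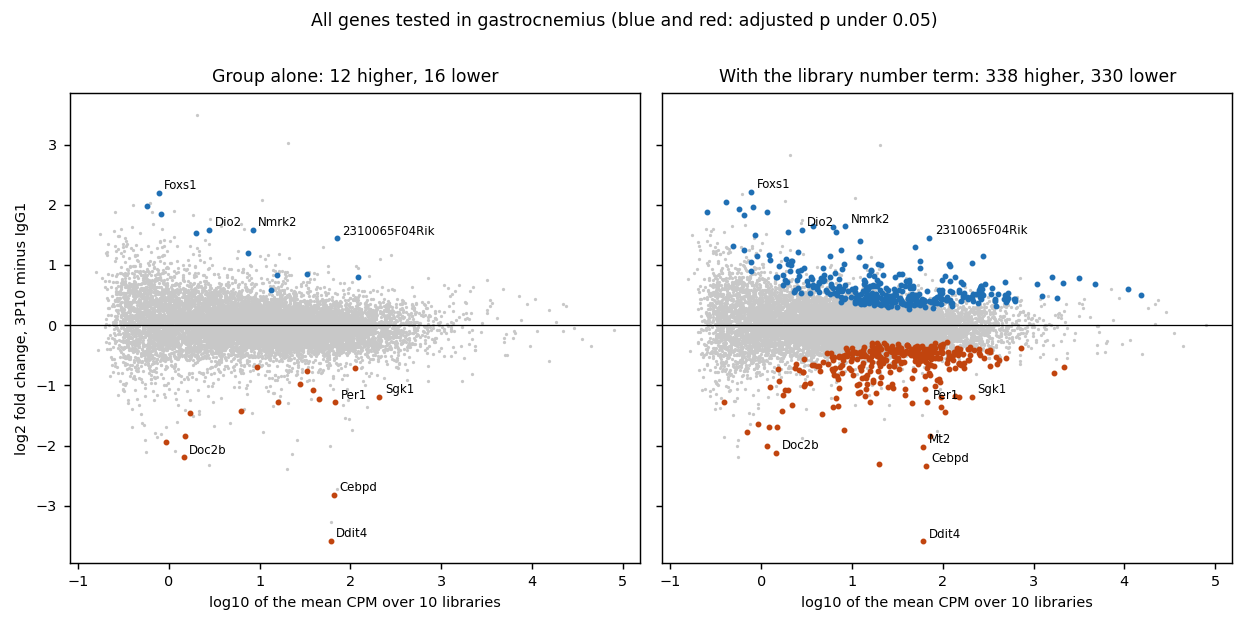
Each point is 1 of 13283 genes tested in gastrocnemius, with the log10 of its mean CPM over the 10 libraries on the x axis and its log2 fold change, 3P10 minus IgG1, on the y axis. Blue and red points passed an adjusted p of 0.05, 28 genes with the groups alone (left) and 668 with the library number term (right), and Ddit4 (-3.58 and -3.59) is the lowest coloured point with the groups alone.

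These counts moved with single libraries. With the groups alone, 231 genes were called without IgG1 replicate 1, and 11, 10, 8 and 17 without IgG1 replicates 2 to 5. Leaving out 3P10 replicates 1 to 5 in turn gave 17, 12, 15, 12 and 10 genes. With the library number term, omitting IgG1 replicate 1 gave 1708 genes and omitting IgG1 replicate 4 gave 254. Omitting 3P10 replicates 2, 3 and 5 gave 88, 370 and 379 genes in that order, and omitting each of the others gave 484 to 697. With the term, 826 genes rose and 882 fell without IgG1 replicate 1, and 58 rose and 30 fell without 3P10 replicate 2. Counts given below for a list with a library left out come from these same fits. On the second principal component, which held 16.6% of the variance, IgG1 replicate 1 lay at -6.37 while the other 4 IgG1 libraries lay between -29.1 and -25.8. The 4 lower-numbered 3P10 libraries lay between -5.46 and 1.05 on it. A set of 8 genes kept its call with the groups alone whichever of the 10 libraries was left out, the other 20 losing it without 2 to 9 of them, and 27 of the 28 did so with the library number term (Gabrr2 lost it without 3P10 replicate 2, adjusted p = 0.0848).

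Of the 8 genes, 2310065F04Rik rose most clearly against its spread. It was measured at 51.9, 39.6, 34.1, 35.2 and 30.98 CPM in IgG1 replicates 1 to 5 and at 91.4, 101, 121, 98.9 and 109.6 CPM in 3P10 replicates 1 to 5. The lowest 3P10 library thus stood well above the highest IgG1 library, and the log2 fold change was 1.45 (SE 0.14, adjusted p = 0.00035) with the groups alone and 1.45 (SE 0.13, adjusted p = 5.62e-05) with the term. Foxs1, a forkhead transcription factor, rose from 0.277 ± 0.0505 to 1.28 ± 0.351 CPM (mean ± SD, n = 5), which is 2.19 on the log2 scale (SE 0.31, adjusted p = 0.00522) and rests on 39 reads in IgG1 and 193 in 3P10. The other 6 fell. Stc2, which encodes the secreted glycoprotein stanniocalcin 2, was measured at 16.7, 20.5, 20.4, 31.5 and 23.6 CPM in the IgG1 libraries and at 7.55, 6.91, 8.58, 11.3 and 12.04 CPM in the 3P10 libraries, and fell by 1.28 on the log2 scale (SE 0.20, adjusted p = 0.0137). Doc2b, a calcium sensor of vesicle release, fell by 2.19 (SE 0.29, adjusted p = 0.00464), reading 1.42 to 3.19 CPM in IgG1 and 0.331 to 0.668 CPM in 3P10, on 343 and 79 reads. Hgs, which sorts ubiquitin-tagged receptors at endosomes, averaged 41.8 ± 4.56 CPM in IgG1 and 24.6 ± 1.97 CPM in 3P10, a fall of 0.76 (SE 0.10, adjusted p = 0.00464). Amotl2, an angiomotin family protein of cell junctions, Scn3b, a beta subunit of voltage-gated sodium channels, and Abca4, a membrane transporter best known from photoreceptors, fell by 0.98, 1.42 and 1.46. For all 8 genes the groups did not overlap, in the higher-numbered libraries as in the lower-numbered ones.

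**Figure D2:**
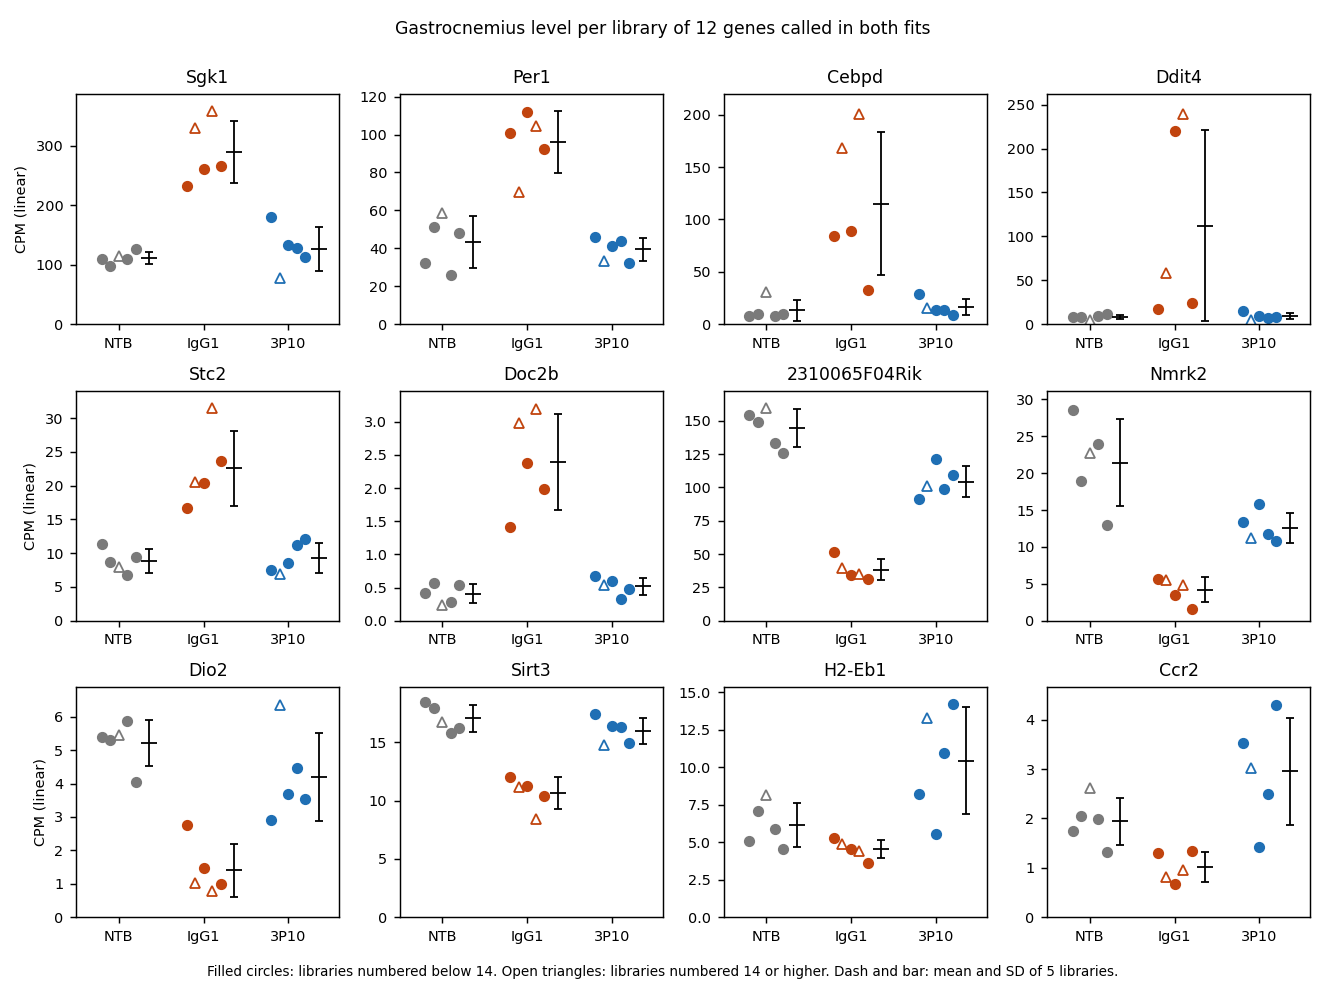
CPM on a linear y axis in each gastrocnemius library for 12 genes called in both fits, by group on the x axis (NTB, IgG1 and 3P10, 5 libraries each), with open triangles for libraries numbered 14 or higher and the mean and SD beside the points. In each panel the 3P10 points lie wholly above or wholly below the IgG1 points, and 2310065F04Rik reads 30.98 to 51.9 CPM in IgG1 and 91.4 to 121 CPM in 3P10.

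Glucocorticoid response genes made up the list with the lowest median of the 35 pathway lists examined. With the library number term, 14 of 28 tested members fell and 0 rose, against 2.48% of all genes lower. With the groups alone 4 fell (Sgk1, Per1, Ddit4 and Cebpd). When a block for replicate number was added, 0 fell with the groups alone and 14 with the term. The list's median log2 fold change was -0.91 with the groups alone and -0.70 with the term, against -0.02 over all genes in both, and the term itself had a median of 0.06 on the list. Within the 7 lower-numbered tumour-bearing libraries the median was -0.62, with 3 members lower, and in the 3 higher-numbered ones, where 1 3P10 library meets 2 IgG1 libraries and no test was made, it was -1.43. The summed level of the list was 3028 to 6633 CPM in IgG1 and 2414 to 2708 CPM in 3P10, so the groups did not overlap. IgG1 replicates 2 and 4, both numbered 14 or higher, held the highest sums. The count with the term went from 14 to 9 without IgG1 replicate 4 and to 5 without 3P10 replicate 2, and the count with the groups alone ran from 0 without IgG1 replicate 4 to 10 without IgG1 replicate 1. Over all genes these 4 fits called 140, 30, 6 and 123 genes lower in the same order.

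Sgk1 encodes a kinase that glucocorticoids induce and that regulates ion channels and the FOXO factors. Its level was 232, 330.5, 262, 358 and 266 CPM in IgG1 replicates 1 to 5 and 180.2, 78.2, 133, 129 and 112.5 CPM in 3P10 replicates 1 to 5. Every 3P10 library lay below every IgG1 library, and Sgk1 fell by 1.19 on the log2 scale with the groups alone (SE 0.19, adjusted p = 0.0142) and by 1.19 with the term (SE 0.18, adjusted p = 0.00297). Without IgG1 replicate 4 or 3P10 replicate 5 the adjusted p with the groups alone rose to at most 0.0584. Per1, a clock repressor that glucocorticoids also induce, was measured at 101, 69.7, 112.1, 104 and 92.3 CPM in the IgG1 libraries and 46.2, 33.2, 41.4, 44.0 and 32.6 CPM in the 3P10 libraries, again without overlap. It fell by 1.28 in both fits (SE 0.21, adjusted p = 0.0164 with the groups alone; adjusted p = 0.00297 with the term). Sgk1 and Per1 are shown by sequence because both were lower in every 3P10 library and a regulatory motif lies before a start site of each.

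The windows are the 250 bases before a RefSeq start site on GRCm38.p6, read 5′ to 3′ in the gene's direction, searched on both strands over all starts. In the Sgk1 window (start 5 of 6, chr10:21993640-21993889, plus strand) the capitals mark a full glucocorticoid receptor element, AGAACA and TGTTCT with 3 bases between them, beginning 189 bases before the start. This element was found in 1 of 10062 tested genes with a promoter entry (0.00994%), which is Sgk1 itself, so the Per1 windows hold none. Of 13 glucocorticoid response genes lower with the term and with an entry, 1 thus held it. Its half-site AGAACA was held by 1 of these 13 (7.69%), by 5 of the 25 tested list members with an entry (20%) and by 12.9% of all genes. In the Per1 window (start 1 of 2, chr11:69098699-69098948, plus strand) the capitals mark an E-box, CACGTG, 166 bases before the start and a D-box, TTATGNAA, 24 bases before it, motifs that clock factors bind and that were held by 9.89% and 2.3% of genes. These motifs do not overlap each other, the Sgk1 window also holds an E-box near its far end that is left in lower case, and a match describes letters, not binding.
Sgk1: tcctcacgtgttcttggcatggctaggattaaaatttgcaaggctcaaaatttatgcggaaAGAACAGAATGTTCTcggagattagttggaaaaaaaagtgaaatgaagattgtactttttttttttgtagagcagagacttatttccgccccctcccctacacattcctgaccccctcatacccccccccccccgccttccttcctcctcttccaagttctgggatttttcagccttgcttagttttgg
Per1: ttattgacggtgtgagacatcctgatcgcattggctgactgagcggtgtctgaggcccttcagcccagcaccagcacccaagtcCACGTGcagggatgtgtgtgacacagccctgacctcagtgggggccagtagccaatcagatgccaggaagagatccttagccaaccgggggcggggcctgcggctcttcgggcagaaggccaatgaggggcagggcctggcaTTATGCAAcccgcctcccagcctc

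Cebpd and Cebpb encode C/EBP transcription factors that respond to glucocorticoids and to inflammation. Cebpd stood at 84.6, 168, 88.9, 201 and 32.4 CPM in the IgG1 libraries and at 28.8, 15.6, 14.03, 13.99 and 8.97 CPM in the 3P10 libraries. It fell by 2.82 with the groups alone (SE 0.50, adjusted p = 0.0294) and by 2.34 with the term (SE 0.35, adjusted p = 0.00297), and the term kept the call with each library left out. Cebpb fell with the term only, by 0.59 (SE 0.17, adjusted p = 0.0477), and lost the call without any one of 8 libraries. The metallothioneins Mt1 and Mt2, metal-binding proteins that glucocorticoids raise, spread widely in IgG1. Mt2 read 6.01, 179.7, 53.9, 296 and 18.1 CPM in IgG1 and 4.64, 16.99, 7.19, 11.3 and 17.5 CPM in 3P10. The 2 highest values were the higher-numbered IgG1 replicates 2 and 4, and IgG1 replicate 1 lay inside the 3P10 range. Mt1 and Mt2 fell by 1.84 and 2.02 with the term (adjusted p = 0.0298 and 0.0446), not with the groups alone (0.111 and 0.113), and with 1 library left out the adjusted p reached 0.155 and 0.204.

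Klf15, a glucocorticoid-induced factor that drives amino acid breakdown in muscle, fell by 0.67 with the term (SE 0.15, adjusted p = 0.0203), with means of 34.6 ± 7.98 and 23.2 ± 6.01 CPM, and lost the call without 3P10 replicate 2 (adjusted p = 0.114). Fkbp5, a chaperone of the receptor and a standard readout of its activity, did not pass in either fit. Its level was 84.3, 152, 109, 173 and 108 CPM in IgG1 and 50.7, 35.1, 60.2, 45.6 and 108 CPM in 3P10, where replicate 5 alone lay within the IgG1 range, and the log2 fold change was -1.06 with the term (SE 0.32, adjusted p = 0.0647). Pdk4, which turns pyruvate away from oxidation, gave -0.52 (SE 0.29, adjusted p = 0.302), and the acute phase gene Lcn2 gave -1.87 (SE 0.59, adjusted p = 0.0773). The other members called lower with the term were Foxo3 and Pik3r1, described below, and, named after their values were seen, Map3k6, Errfi1, Klf9 and Arrdc2. In both fits 1 of the 28, Bcl6, had a positive log2 fold change.

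**Figure D3:**
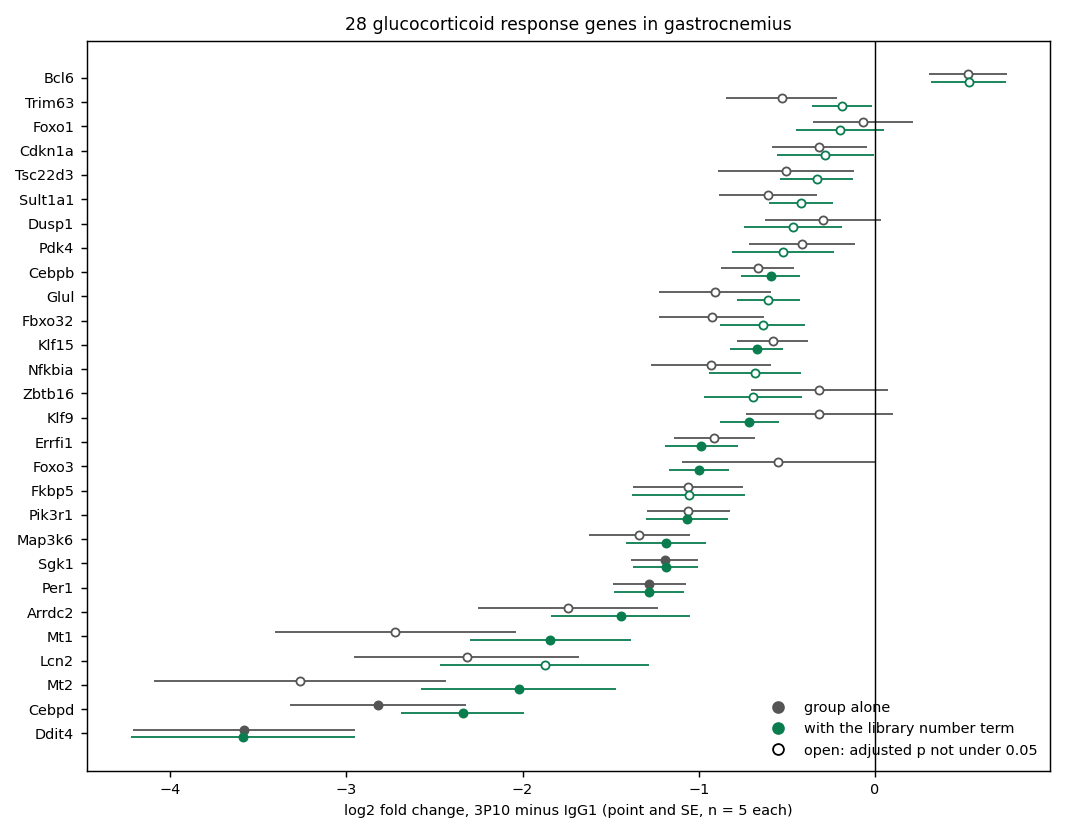
Log2 fold change, 3P10 minus IgG1, with its SE (x axis; n = 5 each) for the 28 tested glucocorticoid response genes (y axis, ordered by the fit with the library number term). Filled points passed an adjusted p of 0.05, which 4 genes did with the groups alone (grey) and 14 with the term (green), and Bcl6 is the 1 gene to the right of 0.

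Genes that hold back growth signalling also fell in part. The lists share members, so the falls counted below are not separate from those above. Ddit4, Foxo3, Pik3r1, Per1, Cebpd and Cebpb are glucocorticoid list members that are counted again in other lists. Eif4ebp1 is in both the mTOR list and the integrated stress response list. Of 18 tested mTOR brakes and growth arrest genes, 5 fell and 0 rose with the term (Eif4ebp1, Ddit4, Eif4ebp2 and, named after their values were seen, Cdkn1c and Deptor), against 2.48% of all genes lower. The list's median was -0.33 with the groups alone and -0.42 with the term, and omitting IgG1 replicate 1 gave 8 falls and 1 rise with the term, omitting IgG1 replicate 2 or 4 or 3P10 replicate 3 gave 3 falls, and omitting 3P10 replicate 2 gave 2. Ddit4 encodes REDD1, which inhibits mTORC1 under stress and is also a glucocorticoid target. It was measured at 17.8, 58.2, 220.2, 239.8 and 24.7 CPM in IgG1 replicates 1 to 5 and at 15.3, 5.31, 9.97, 7.43 and 8.80 CPM in 3P10 replicates 1 to 5. The IgG1 libraries spanned more than 10-fold, with replicates 3 and 4 highest, while the 3P10 libraries lay together and all below the lowest IgG1 library. Ddit4 fell by 3.58 with the groups alone (SE 0.63, adjusted p = 0.0294) and by 3.59 with the term (SE 0.64, adjusted p = 0.00649). Eif4ebp1, a repressor of cap-dependent translation, read 75.0, 181, 70.9, 188 and 78.7 CPM in IgG1 and 42.3, 62.4, 35.9, 44.5 and 50.3 CPM in 3P10, with no overlap. It fell by 1.02 with the term (SE 0.15, adjusted p = 0.00297), a call kept without each library, and gave -1.33 with the groups alone (SE 0.30, adjusted p = 0.0808). Its relative Eif4ebp2 fell by 0.90 with the term, although the higher-numbered libraries lay low in each group (-2.33 for the term itself), and lost the call without 3P10 replicate 2. Gadd45a, a growth arrest gene of denervated and wasting muscle, gave -0.47 (SE 0.19, adjusted p = 0.168).

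Of 24 FOXO and insulin signalling genes, 4 fell and 0 rose with the term, against 2.48% of all genes lower. With the groups alone 0 passed by edgeR, which gave 5 at an unadjusted p under 0.05, while DESeq2 called 3. Over all 13283 genes these numbers were 28, 1430 and 284. Foxo3, a driver of atrophy genes, fell by 0.999 (SE 0.17, adjusted p = 0.00545) and kept the call with each library left out. The term was large for it (-2.31): it read 19.8, 5.48, 17.9, 5.06 and 19.3 CPM in IgG1 and 12.2, 1.75, 11.4, 11.9 and 8.88 CPM in 3P10, so the 3 higher-numbered libraries lay lowest and the groups overlapped. Pik3r1, the regulatory subunit of PI3 kinase, fell by 1.07, and Akt1, the kinase below it, by 0.84 (adjusted p = 0.0182 and 0.0169), and both lost the call without 3P10 replicate 2 (adjusted p = 0.119 and 0.118). The remaining member, named after its value was seen, was Igfbp3. The list's count was 1 without 3P10 replicate 2, and its median was -0.19 with the term.

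The ubiquitin ligases that mark muscle atrophy did not pass. Fbxo32, or atrogin-1, was measured at 417, 1590.0, 746, 1408 and 525 CPM in IgG1 replicates 1 to 5 and at 457, 507, 605, 490.2 and 405 CPM in 3P10 replicates 1 to 5. IgG1 replicates 2 and 4 stood far above the other 3, of which replicates 1 and 5 lay inside the 3P10 range, and 3P10 replicate 2, also numbered 14 or higher, was not raised in the same way. The log2 fold change was -0.93 with the groups alone (SE 0.30, adjusted p = 0.237) and -0.64 with the term (SE 0.24, adjusted p = 0.13). It was -0.20 within the lower-numbered libraries and -1.57 within the higher-numbered ones, the latter from 1 against 2 libraries. Trim63, or MuRF1, gave -0.53 with the groups alone (SE 0.32, adjusted p = 0.594) and -0.19 with the term (SE 0.17, adjusted p = 0.558), and 0.08 within the lower-numbered libraries. Of the 24 members of the ligase list, 1 fell with the term, 4.17% against 2.48% of all genes lower. That gene, Itch, fell by 0.32 (adjusted p = 0.0481), a call lost without any one of 9 libraries. Among 35 autophagy and lysosome genes 1 fell with the term, 2.86% against 2.48% of all genes lower. This was the mitophagy receptor gene Bnip3, which fell by 0.59 (SE 0.15, adjusted p = 0.035) and lost the call without any one of 5 libraries. Mstn, the gene of the muscle growth inhibitor myostatin, fell by 0.48 with the term (SE 0.12, adjusted p = 0.0355). It read 61.1 to 77.3 CPM in IgG1 and 35.8 to 60.0 CPM in 3P10 without overlap, and the call was lost without any one of 6 libraries.

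Some clock and immediate early genes fell with the term. Of 18 core circadian genes, 5 fell and 0 rose with the term, against 2.48% of all genes lower. Per1, Rora and, named after their values were seen, Csnk1e and Cry2 were among the 5. The count was 2 without 3P10 replicate 2 and 3 without any one of IgG1 replicates 2 to 5 and 3P10 replicates 3 to 5. Rora, a nuclear receptor that acts on clock and metabolic genes, fell by 0.64 (SE 0.12, adjusted p = 0.00802; 0.0638 without 3P10 replicate 2). The 14 clock output genes gave 0 calls in either fit by edgeR and by DESeq2. With the term 4 of them were at an unadjusted p under 0.05, against 2950 of all 13283 genes, and their median was -0.33. The hour of tissue collection is not given in the labels. Of 23 immediate early genes, which respond to stimulation within minutes, 5 fell and 0 rose with the term, against 2.48% of all genes lower. These were Klf6, Myc, Jun and, named after their values were seen, Btg2 and Zfp36. Klf6 passed both fits, falling by 1.08 with the groups alone (SE 0.20, adjusted p = 0.0379) and by 1.16 with the term (SE 0.17, adjusted p = 0.00297). Myc fell by 1.21 and Jun by 0.63 with the term, and both lost the call without 3P10 replicate 2, when the list's count was 1. That count was 3 without IgG1 replicate 3 or 4, or without any one of 3P10 replicates 1, 3, 4 and 5.

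Cytokine and stress response genes followed. Il6ra, the receptor chain for interleukin 6, was measured at 9.84, 10.9, 11.4, 10.02 and 17.6 CPM in IgG1 and at 5.54, 1.39, 3.01, 3.31 and 8.32 CPM in 3P10, all 3P10 values lying below all IgG1 values. It fell by 1.74 with the term (SE 0.34, adjusted p = 0.0103; 0.0676 without 3P10 replicate 2) and gave -1.46 with the groups alone (SE 0.41, adjusted p = 0.151). With Cebpd and Cebpb it made 3 falls and 0 rises among 21 tested genes of the interleukin 6 and acute phase list. Over all genes 2.48% were lower with the term, and the list's count was 1 without 3P10 replicate 2. Socs3, the feedback inhibitor that STAT3 induces, gave -0.45 (SE 0.24, adjusted p = 0.291). Cish, a feedback inhibitor that STAT5 induces, read 61.5, 50.6, 11.1, 33.7 and 10.5 CPM in IgG1 and 4.34, 11.01, 3.20, 9.33 and 4.22 CPM in 3P10, with 3 IgG1 libraries above 30 and the other 2 near the top of the 3P10 range. It fell by 2.31 with the term (SE 0.53, adjusted p = 0.0203) and lost the call without 3P10 replicate 2 or 5 (adjusted p up to 0.0649). Of 30 integrated stress response genes, 3 fell and 0 rose with the term (Eif4ebp1, Gpt2 and Chac1), against 2.48% of all genes lower. Chac1, which degrades glutathione, fell by 1.19 (SE 0.27, adjusted p = 0.0214), reading 131 to 371 CPM in IgG1 and 44.5 to 119 CPM in 3P10, and Gpt2, a mitochondrial alanine aminotransferase, by 0.54 (SE 0.10, adjusted p = 0.00955). Both lost the call without 3P10 replicate 2, when the list's count was 1, and Chac1 also without 3P10 replicate 3.

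Single genes of energy metabolism, Nmrk2, Sirt3 and Dio2, rose in both fits. Of 33 tested genes of NAD synthesis and amino acid metabolism, 2 rose and 2 fell with the term. Over all genes 2.54% were higher and 2.48% lower. The rises were Nmrk2 and Nmnat1 and the falls Gpt2 and Prodh, of which Nmnat1 and Prodh are named after their values were seen. The list's medians were -0.08 with the groups alone and -0.01 with the term. Of 26 genes of mitochondrial biogenesis and uncoupling, 1 rose and 0 fell (Sirt3, 3.85% against 2.54% of all genes higher). Nmrk2, a muscle kinase that makes NAD from nicotinamide riboside, was measured at 5.59, 5.52, 3.46, 4.87 and 1.62 CPM in IgG1 replicates 1 to 5 and at 13.3, 11.2, 15.8, 11.8 and 10.8 CPM in 3P10 replicates 1 to 5. The lowest 3P10 library was close to double the highest IgG1 library, and Nmrk2 rose by 1.58 with the groups alone (SE 0.28, adjusted p = 0.0294) and by 1.64 with the term (SE 0.27, adjusted p = 0.00461). Sirt3, the NAD-dependent deacetylase of mitochondria, rose by 0.58 (SE 0.11, adjusted p = 0.0441), with means of 10.6 ± 1.38 and 15.95 ± 1.10 CPM, also without overlap. Dio2, which makes active thyroid hormone inside cells, rose by 1.58 (SE 0.30, adjusted p = 0.0428), from 2.76, 1.04, 1.47, 0.797 and 0.978 CPM in IgG1 to 2.90, 6.34, 3.69, 4.48 and 3.55 CPM in 3P10. The highest IgG1 library and the lowest 3P10 library lay close together, and the next IgG1 value was well below. Brown fat also makes Dio2. The 5 brown fat markers tested had a median of 1.83 with the groups alone, with 0 called by edgeR, 4 at an unadjusted p under 0.05 and 1 called by DESeq2 with the term. Over all 13283 genes, 1430 were at an unadjusted p under 0.05 with the groups alone, and DESeq2 with the term called 1104. The brown fat markers are given as values only. Their summed level was 12.6 to 31.04 CPM in IgG1 and 17.5 to 148 CPM in 3P10, whose part in the Dio2 value was not tested.

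Some subunits of the respiratory chain rose, in the fit with the term only. Of 36 complex I genes 12 rose, and of 40 genes of complexes II to V 16 rose, with 0 falls in either list, against 2.54% of all genes higher. Both lists had 0 edgeR calls with the groups alone. At an unadjusted p under 0.05 were 2 of the 36 and 4 of the 40 genes, against 1430 of all 13283. DESeq2 called 1 complex I gene and 0 of the others, and 284 over all genes. With the 10 compared libraries fitted alone and the term, 0 complex I genes and 6 of complexes II to V were called. Their medians were 0.21 and 0.23 with the groups alone and 0.34 and 0.38 with the term. The term itself was far larger on them, with medians of 1.06 and 0.83, so the higher-numbered libraries held more of these transcripts in each group. Within the lower-numbered libraries the complex I median was 0.29, with 33 of 36 members positive and 0 called, and within the higher-numbered ones 0.46, with 35 positive. With the groups alone, the medians of the 2 lists were -0.02 and 0.01 without 3P10 replicate 2, itself 1 of the higher-numbered libraries. The brown fat markers, whose cells are rich in mitochondria, were positive for 5 of 5, with medians of 1.83 with the groups alone and 2.07 with the term, and their sum was highest in that same library, at 148 CPM. Their part in the respiratory values was not tested. Atp5h, a subunit of ATP synthase, read 173, 499, 262, 410.4 and 199.9 CPM in IgG1 and 300.0, 729, 338, 298 and 316 CPM in 3P10. Among the lower-numbered libraries all 3P10 values exceeded all IgG1 values, and the same held among the higher-numbered ones, while the whole groups overlapped. Atp5h rose by 0.61 with the term (SE 0.11, adjusted p = 0.00843). The complex I subunits Ndufb7, Ndufb9 and Ndufs8 rose by 0.68, 0.43 and 0.46 (adjusted p = 0.0171, 0.0177 and 0.0183) and lost the call without 3P10 replicate 2. Omitting that library left 0 complex I calls, omitting IgG1 replicates 4 and 5 left 3 and 6, omitting 3P10 replicates 3 and 5 left 5 and 4, and omitting IgG1 replicate 1 gave 22. The same omissions gave 3, 4 and 6, 8 and 7, and 26 calls in complexes II to V, which had 9 when 3P10 replicate 4 was omitted. Over all genes 58 rose without 3P10 replicate 2 and 826 without IgG1 replicate 1.

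Fuel enzymes gave smaller counts. Of 25 beta-oxidation genes 3 rose with the term, against 2.54% of all genes higher: Decr1 and Acaa2 and, named after its value was seen, Etfb. Decr1, which handles unsaturated fatty acids, rose by 0.55 (SE 0.11, adjusted p = 0.014; 0.0762 without 3P10 replicate 2), and Acaa2, the thiolase of the last step, by 0.51 (SE 0.14, adjusted p = 0.0461), a call lost without any one of 6 libraries. Of 29 glycolysis and glucose uptake genes 3 rose, against the same 2.54%: Pgam2 and Tpi1 and, named after its value was seen, Pfkl. Pgam2, the muscle phosphoglycerate mutase, rose by 0.81 (SE 0.12, adjusted p = 0.00297) and kept the call with each library left out. Tpi1, triose phosphate isomerase, rose by 0.46 (SE 0.10, adjusted p = 0.0203) and lost it without IgG1 replicate 4 or 3P10 replicate 2. The beta-oxidation count was 0 without 3P10 replicate 2, 1 without any one of IgG1 replicates 4 and 5 and 3P10 replicates 3 to 5, and 5 without IgG1 replicate 2, and the glycolysis count was 1 without IgG1 replicate 4 or 3P10 replicate 2 and 7 without IgG1 replicate 1. Gamt, the last enzyme of creatine synthesis, rose by 1.63 with the term (SE 0.43, adjusted p = 0.0387), with overlapping groups and a call lost without any one of 8 libraries.

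**Figure D4:**
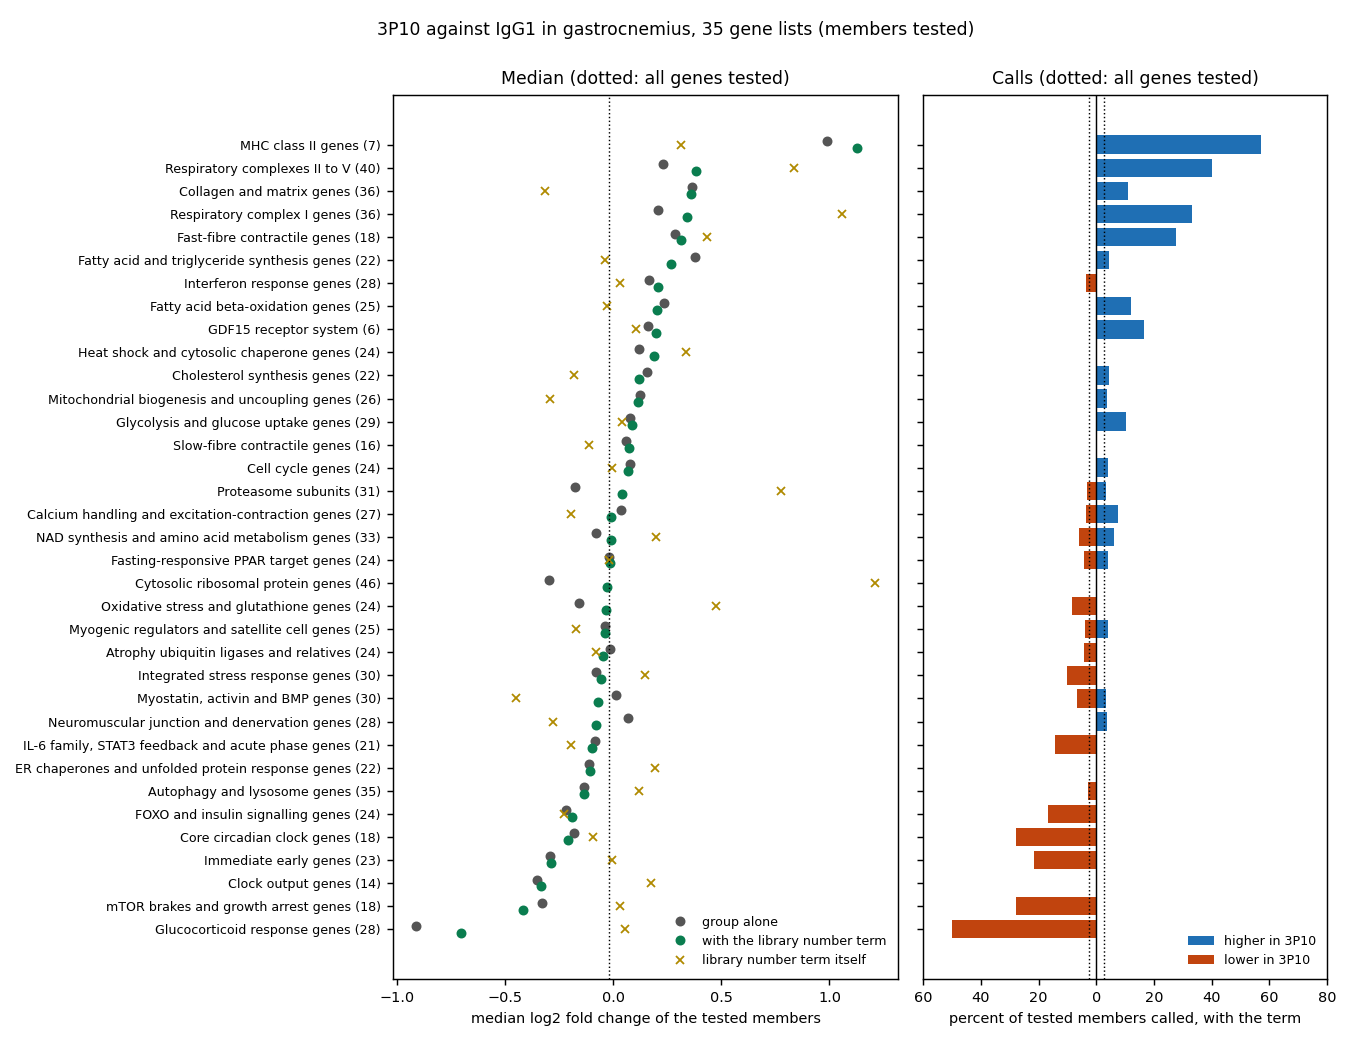
For 35 gene lists (y axis, tested members in brackets), the left panel gives the median log2 fold change, 3P10 minus IgG1, with the groups alone (grey) and with the library number term (green), and the median of that term itself (crosses), and the right panel the percent of members called higher (blue) or lower (red) with the term beside dotted lines for all genes tested, 2.54% and 2.48%. Glucocorticoid response genes have the lowest medians and MHC class II genes the highest in both fits.

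Contractile genes rose in part. Of 18 fast-fibre genes 5 rose and 0 fell with the term, against 2.54% of all genes higher. The 5 were Casq1, Smtnl2, Myl1 and, named after their values were seen, Mylpf and Tnnc2. With the groups alone 0 passed by edgeR, with 7 at an unadjusted p under 0.05, against 1430 of all 13283 genes. The list's median was 0.29 with the groups alone and 0.31 with the term, and the term itself had a median of 0.43 on it. Casq1, the main calcium store protein of fast fibres, was measured at 2476, 2541, 2163, 2269 and 2440.3 CPM in IgG1 and at 3673, 5147, 4512, 3398 and 3254 CPM in 3P10. The IgG1 libraries lay close together and all below the 3P10 libraries, and Casq1 rose by 0.79 with the term (SE 0.13, adjusted p = 0.00367) and gave 0.75 with the groups alone (SE 0.16, adjusted p = 0.0703). Stac3, which couples the calcium channels of excitation and contraction, rose by 0.68 (SE 0.10, adjusted p = 0.00297), and Smtnl2, a smoothelin-like protein, by 0.98 (SE 0.16, adjusted p = 0.005). Casq1, Stac3 and Smtnl2 kept the call with each library left out. Myl1, a fast myosin light chain, rose by 0.69 (adjusted p = 0.0461) and lost the call without any one of 9 libraries. Omitting IgG1 replicate 1 gave 8 rises and 3 falls among the fast-fibre genes, as did DESeq2 with the term and all libraries, and omitting any other library gave 2 or 3 rises and 0 falls. Over all genes 826 rose and 882 fell without IgG1 replicate 1, and 567 rose and 537 fell by DESeq2. The myosin heavy chains of fast and slow fibres, Myh4 and Myh7, gave 0.01 (SE 0.16) and -0.13 (SE 0.31) with the term, and the 16 slow-fibre genes gave 0 calls by edgeR and DESeq2, with 1 at an unadjusted p under 0.05 with the term. As a check of the tissue label, all 15 skeletal muscle fibre markers were tested and their sum lay between 219808 and 367267 CPM in the 10 libraries.

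Genes of antigen presentation had the highest median of the 35 pathway lists. Of 9 MHC class II genes listed 7 were tested, and 4 rose with the term, against 2.54% of all genes higher. They were H2-Ab1, H2-Eb1, H2-Aa and, named after its value was seen, Cd74, and 1 of them, H2-Eb1, also rose with the groups alone. The median was 0.99 with the groups alone and 1.13 with the term, 0.85 within the lower-numbered and 1.27 within the higher-numbered libraries. H2-Eb1, a class II beta chain, read 5.28, 4.87, 4.51, 4.38 and 3.64 CPM in IgG1 and 8.18, 13.3, 5.57, 10.9 and 14.2 CPM in 3P10. The lowest 3P10 library, replicate 3, lay just above the highest IgG1 library, and H2-Eb1 rose by 1.20 (SE 0.23, adjusted p = 0.0445). H2-Ab1, the other classical beta chain, rose by 1.39 with the term (SE 0.22, adjusted p = 0.00318) and kept the call with each library left out, and H2-Aa, the alpha chain, rose by 1.13 (SE 0.28, adjusted p = 0.0311), a call lost without any one of 7 libraries. The list's count was 2 without any one of IgG1 replicates 2 to 5 and 3P10 replicates 2, 4 and 5. Its sum was 31.1 to 54.0 CPM in IgG1 and 45.3 to 94.4 CPM in 3P10, so the groups overlapped.

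Class II promoters carry a shared module that ends in a Y box, an inverted CCAAT sequence. The motif GATTGG, searched on both strands, was found in 4 of 4 tested class II genes with a promoter entry and in 21.4% of all 10062 genes. The 120 bases before the RefSeq start of H2-Aa (GRCm38.p6, chr17:34287824-34287943, minus strand) and of H2-Eb1 (chr17:34305747-34305866, plus strand) are printed in the gene's direction, with the motif on either strand in capitals. GATTGG, the inverted order of a Y box, begins 49 bases before the start of H2-Aa and 60 bases before the start of H2-Eb1. The other match in H2-Eb1, 35 bases before the start, reads CCAATC on the printed strand, so it is a direct and not an inverted CCAAT.
H2-Aa: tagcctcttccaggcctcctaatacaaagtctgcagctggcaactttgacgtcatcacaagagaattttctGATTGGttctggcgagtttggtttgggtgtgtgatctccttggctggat
H2-Eb1: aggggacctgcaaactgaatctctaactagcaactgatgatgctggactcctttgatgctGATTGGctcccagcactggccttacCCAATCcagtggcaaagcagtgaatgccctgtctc

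Ccr2, the chemokine receptor of recruited monocytes, rose by 1.54 with the groups alone (SE 0.29, adjusted p = 0.0423). It read 1.30, 0.820, 0.665, 0.950 and 1.34 CPM in IgG1 and 3.54, 3.03, 1.43, 2.50 and 4.30 CPM in 3P10, on 147 and 466 reads, without overlap. More cells of a type and more RNA per cell cannot be told apart in such bulk tissue. The macrophage markers gave 0 calls among 11 tested in both fits, also at an unadjusted p under 0.05 and by DESeq2, with a median of 0.02 with the term, and their sum was 71.9 to 93.7 CPM in IgG1 and 64.2 to 110 CPM in 3P10. The neutrophil markers likewise gave 0 calls among 4 tested, with a sum of 2.87 to 5.28 CPM in IgG1 and 2.33 to 7.32 CPM in 3P10. No B cell marker passed the filter, and Ms4a1, Pax5, Fcmr and Blk were at 0 in all 10 libraries. T cells had 2 markers tested, of which Thy1, named after its value was seen, rose with the term and the other did not pass. Cd3e, Cd3d, Cd3g, Cd4, Cd8a, Lck and Cd2 were too low to be tested. The T cell list's sum was 4.77 to 12.7 CPM in IgG1 and 6.24 to 13.1 CPM in 3P10. The part of immune cell number in the class II and Ccr2 values was not tested. Of 28 interferon response genes 1 fell with the term, 3.57% against 2.48% of all genes lower. That gene, Ifit1, fell by 0.71 (SE 0.19, adjusted p = 0.0371) and lost the call without any one of 6 libraries.

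**Figure D5:**
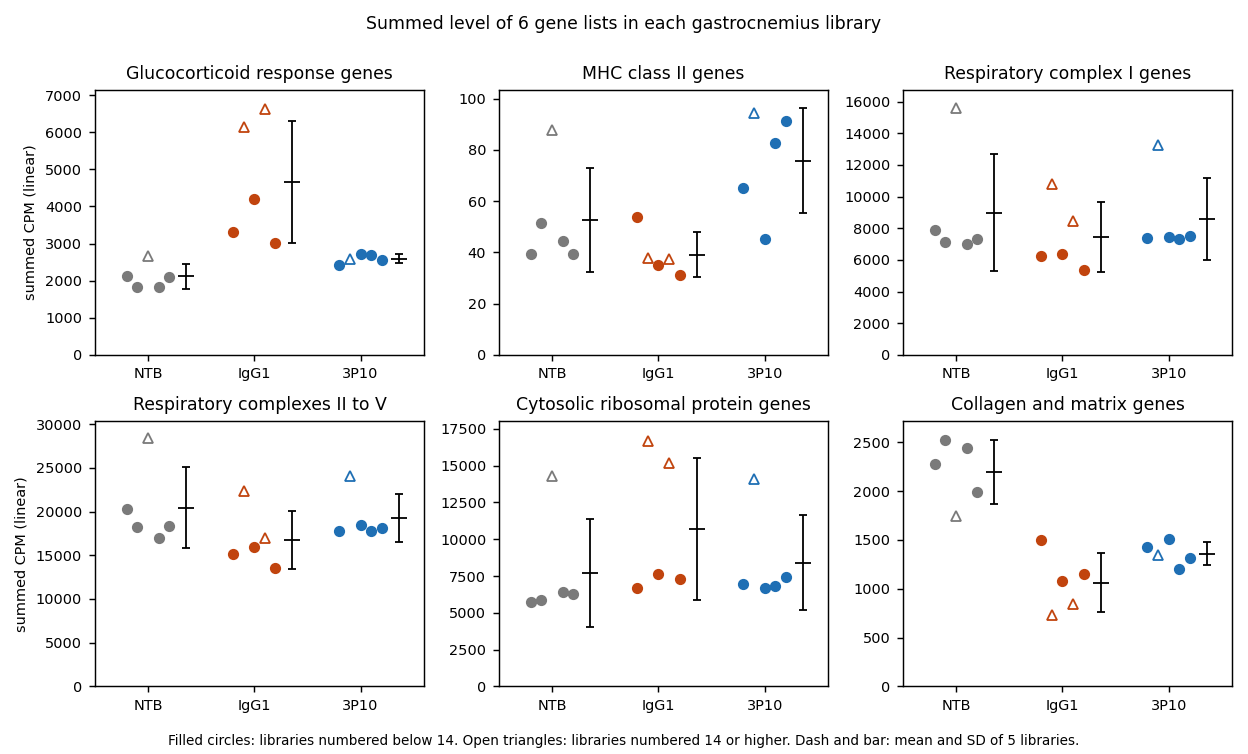
Summed CPM (linear y axis) of 6 gene lists in each gastrocnemius library, by group on the x axis (5 libraries each), with open triangles for libraries numbered 14 or higher and the mean and SD beside the points. The IgG1 sums of the glucocorticoid list, 3028 to 6633 CPM, lie wholly above the 3P10 sums, 2414 to 2708 CPM, while respiratory and ribosomal protein sums are highest in the open triangles of each group.

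Of 36 collagen and matrix genes, 30 had a positive log2 fold change in both fits, and few passed. The list's median was 0.37 with the groups alone and 0.36 with the term. Over all 13283 genes, 6194 were positive with the groups alone and 6190 with the term, with a median of -0.02 in both. Within the lower-numbered libraries the median was 0.13, with 24 members positive, and within the higher-numbered ones, 1 against 2, it was 0.67, with 32 positive. By edgeR 0 were called with the groups alone, 15 had an unadjusted p under 0.05 and DESeq2 called 1. Over all genes these numbers were 28, 1430 and 284. With the term 4 rose by edgeR (11.1% against 2.54% of all genes higher) and 10 by DESeq2, which called 567 of all genes higher. The edgeR calls were Eln, Col15a1, Loxl2 and, named after its value was seen, Postn. Eln, which encodes elastin, rose by 0.65 (SE 0.15, adjusted p = 0.0251), and Loxl2, which cross-links collagen and elastin, by 0.66 (SE 0.18, adjusted p = 0.0405). Col15a1, a basement membrane collagen, rose by 0.70 (SE 0.18, adjusted p = 0.0321). These calls were lost without any one of 3, 6 and 6 libraries in that order. Col1a1, the main fibrillar collagen, read 50.2, 11.6, 24.7, 14.004 and 24.9 CPM in IgG1 and 49.7, 38.7, 51.4, 30.4 and 34.999 CPM in 3P10. IgG1 replicate 1 lay with the 3P10 libraries and the other 4 below all of them, and Col1a1 gave 0.69 (SE 0.23, adjusted p = 0.0971). Col3a1 gave 0.75 (SE 0.35, adjusted p = 0.219). Omitting IgG1 replicate 1 gave 14 rises and 1 fall in the list, against 826 rises and 882 falls over all genes. Omitting IgG1 replicate 2 or 3P10 replicate 5 gave 2 rises, and omitting IgG1 replicate 4 or 3P10 replicate 3 gave 1. Omitting IgG1 replicate 3 gave 1 rise and 1 fall. Omitting 3P10 replicate 2 gave 0 calls, against 88 over all genes. Tendon markers, whose amount depends on how the muscle is trimmed, had a median of 0.51 with the term, with 10 tested, 0 called by edgeR and 1 by DESeq2. Their sum was 21.7 to 64.0 CPM in IgG1 and 33.4 to 80.1 CPM in 3P10, and their part in the matrix values was not tested. Fibroblast, endothelial, smooth muscle, Schwann, fat, keratinocyte and mast cell markers gave 0 calls in either fit by edgeR, while DESeq2 with the term called 1 fibroblast and 2 endothelial markers and 0 of the rest. The 8 keratinocyte markers tested had a median of -0.67 with the term and a sum of 12.7 to 26.4 CPM in IgG1 and 10.6 to 16.6 CPM in 3P10. Red cell genes had 2 members tested, Alas2 and Bpgm, named after their values were seen, which rose with the term, and the globin genes listed were at 0 in all 10 libraries.

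Aplnr, the apelin receptor of vessels and muscle, rose by 1.55 with the term (SE 0.27, adjusted p = 0.00627), a call kept with each library left out. It was measured at 6.05, 2.37, 2.34, 1.10 and 4.74 CPM in IgG1 and at 13.4, 8.91, 9.74, 9.63 and 8.74 CPM in 3P10, so that even the highest IgG1 library, replicate 1, lay below all 3P10 libraries. Mfap4, a microfibril-associated protein, and Mycn, a MYC family transcription factor, rose by 1.65 and 1.88 with the term (adjusted p = 0.0199 and 0.0203). Both lost the call without IgG1 replicate 4 or 3P10 replicate 2, at an adjusted p of up to 0.114 for each. Cdh15, the M-cadherin of satellite cells, fell by 0.62 with the term (SE 0.13, adjusted p = 0.014; 0.114 without 3P10 replicate 2), with means of 41.7 ± 5.67 and 27.2 ± 3.83 CPM, the 1 satellite cell marker of 5 to pass.

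Other genes called in both fits belong to none of the lists. Among the rises, Ibtk, an inhibitor of Bruton's tyrosine kinase, went from 87.9 ± 12.03 to 152 ± 27.8 CPM, a rise of 0.79 on the log2 scale (SE 0.14, adjusted p = 0.0379). Tppp3, a microtubule-associated protein, rose by 0.85 (SE 0.15, adjusted p = 0.0285), and Map2k6, the kinase that activates p38, by 0.83 (SE 0.14, adjusted p = 0.0288). Rsph1, a radial spoke protein of cilia, and 9630001P10Rik rose by 1.85 and 1.98 from low levels, with 50 and 33 reads in IgG1. Among the falls, Spns2, which exports sphingosine 1-phosphate, went from 73.4, 52.0, 47.8, 81.5 and 62.6 CPM in IgG1 to 32.9, 20.3, 20.7, 24.01 and 38.4 CPM in 3P10. All its 3P10 values lay below all IgG1 values, and it fell by 1.22 (SE 0.23, adjusted p = 0.0429). Dym, a Golgi protein, and Pygo1, a co-activator of WNT signalling, fell by 0.72 and 0.70. Wfikkn1, a secreted antagonist of myostatin, fell by 1.94 (SE 0.36, adjusted p = 0.0423), reading 0.766 to 2.48 CPM in IgG1 and 0.301 to 0.481 CPM in 3P10. Gabrr2, a GABA receptor subunit, fell by 1.85. These genes lost their calls with the groups alone without 6 to 9 of the 10 libraries, at an adjusted p of up to 0.172 (Rsph1). Gpr179, an orphan receptor with 284 reads in IgG1 and 68 in 3P10, was called in the fit with the term only, as lower (adjusted p = 0.0288), and the call was lost without any one of 6 libraries. The pathway lists not described so far gave at most 2 calls each way.

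The target of the antibody was not seen in muscle. Gfral had 0 reads in all 15 libraries, and Gdf15 had 14, 13 and 19 reads over the NTB, IgG1 and 3P10 libraries, so neither was tested. Ret was measured at 3.41, 0.863, 2.31, 0.889 and 2.47 CPM in IgG1 and at 3.87, 3.53, 5.61, 3.01 and 3.88 CPM in 3P10. IgG1 replicate 1 lay within the 3P10 range and the other 4 IgG1 libraries below it, and Ret gave 0.996 with the groups alone (SE 0.35, adjusted p = 0.292) and rose by 0.94 with the term (SE 0.26, adjusted p = 0.0428). The call was lost without any one of 7 libraries, at an adjusted p of up to 0.188. Antibody levels and circulating GDF15 were not analysed here.

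The NTB libraries give the level in mice without a tumour, which also carry no antibody in their labels. The IgG1 libraries enter both IgG1 against NTB and 3P10 against IgG1, so the values are set side by side and no relation between the comparisons is drawn. IgG1 against NTB gave 744 genes with the groups alone (5.6%) and 2455 with the term (18.5%). 3P10 against NTB gave 0 genes by edgeR with the groups alone, with 563 at an unadjusted p under 0.05 and 15 by DESeq2, and 5 with the term (0.0376%). For Sgk1 the log2 fold change was 1.37 in IgG1 against NTB (adjusted p = 0.00125) and 0.18 in 3P10 against NTB, where NTB lay at 111.97 ± 10.3 CPM. Ddit4 gave 3.70 and 0.12 in the same order, Stc2 gave 1.35 and 0.07, and Nmrk2 gave -2.35 and -0.77. For 2310065F04Rik, at 144 ± 14.3 CPM in NTB, the values were -1.91 and -0.47. Col1a1 gave -1.86 and -1.15, and H2-Eb1 gave -0.44 and 0.76, its 3P10 mean lying above the NTB mean of 6.16 ± 1.47 CPM.

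White fat from the same 3 groups lies in the same count table, and whether the 3P10 against IgG1 difference differed between the tissues was tested in a joint fit. It did for 31 of 14898 genes (0.208%), and for 216 (1.45%) with a library number term in each tissue, but for 2 without the libraries numbered 14 or higher and for 5 with library number as a block over both tissues. White fat alone gave 1068 genes (7.42%). Of the muscle genes described here 3 passed that test, in each case with a muscle difference below the white fat difference: Gadd45a (-1.56, SE 0.34, adjusted p = 0.0415), Spns2 (-1.69, SE 0.36, adjusted p = 0.0415) and Ifit1 (-1.72, SE 0.36, adjusted p = 0.0409). Muscle and white fat libraries of a group carry the same library numbers. With library number as a block over both tissues, Ifit1 kept the call (adjusted p = 0.035) and Gadd45a and Spns2 lost it (adjusted p = 0.11 and 0.119), and without the libraries numbered 14 or higher all 3 lost it (adjusted p = 0.316 to 0.364). Per1 gave -1.28 in muscle and -1.60 in white fat (adjusted p = 0.00602), and the difference between the tissues was 0.36 (SE 0.32, adjusted p = 0.664). For Ddit4 the white fat value was -0.64 (SE 0.41) and the difference -2.90 (SE 0.75, adjusted p = 0.075), and for Ccr2 the white fat value was 1.87 (SE 0.26, adjusted p = 0.00602) and the difference -0.29 (SE 0.40).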

How the data were processed

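RNA of flash-frozen gastrocnemius was sequenced in 15 libraries made with a directional kit, per the labels' protocols. The deposited values are raw counts, whole read numbers for 24391 genes. Per the submitters' processing notes, Trim Galore, STAR 2.6.0a, featureCounts 1.6.2, edgeR 3.22.3 and mm9 were used. Which annotation and strand setting the counting used is not given in the sources used here, so overlapping genes and near-identical copies are uncertain.

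The counts (5 libraries each of 3P10, IgG1 and NTB) were fitted together in R 4.3.3 with the quasi-likelihood test of edgeR 4.0.16, TMM factors and filterByExpr (minimum count 10, minimum total 15), by group alone or with a term for a library number of 14 or higher. Tests were 2-sided, with p-values adjusted by Benjamini-Hochberg across every gene in the fit, and a gene was called under 0.05. SE is the absolute log2 fold change over the root of F. CPM are counts scaled by the TMM-adjusted library size, and ratios within the higher-numbered libraries are log2 of CPM plus 0.25, with no test. A joint edgeR fit with white fat tested the difference between tissues. The scripts were tested on simulated data.

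Genes named were a panel, the 15 largest rises and falls among called genes with groups that did not overlap and a mean of at least 1 CPM, up to 8 each way with the term, and up to 3 called members of each list. Foxs1, Wfikkn1, Rsph1 and 9630001P10Rik lie below 1 CPM and complete the 28 calls. The comparison, members and lists were chosen with earlier results of these data known. Lists are described by counts and medians. Alternatives were DESeq2 1.42.0, RLE factors, other filters, fewer libraries and a replicate block. No libraries were duplicates. The values of 1 called gene are not reported here. Promoter sequences are from RefSeq (GRCm38.p6), with an entry for 10062 of 13283 genes tested, matched by symbol.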

Additional observations from a re-analysis of the deposited data

Results flagged for a closer look

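For the genes described and the library totals, each group of 5 was checked for a library set apart from the other 4 by Dixon's criterion. This found 17 single values in 172 groups, 11 of them in libraries numbered 14 or higher, and chance alone gives about 1 group in 20.

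In 3P10 replicate 2 the muscle and mitochondrial genes stood high. Pgam2 read 3674 CPM against 1380.0 to 1670.2 in the other 3P10 libraries, Myl1 9962 against 4181 to 5219, Ndufb7 378 against 131 to 162, Ndufb9 751 against 436 to 500, and Atp5h 729 against 298 to 338. Cebpb read 50.5 against 38.7 to 41.4 and Itch 11.7 against 23.9 to 26.7 in the same library. Among the IgG1 libraries, replicate 2 stood high for Gadd45a at 77.7 CPM (others 38.6 to 42.1) and Stac3 at 289 CPM (208 to 216), and replicate 4 for Gpt2 at 414 CPM (309 to 336) and Pik3r1 at 135 CPM (61.9 to 82.5).

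Of the lower-numbered libraries, IgG1 replicate 1 stood high for Col3a1 at 164 CPM (21.4 to 44.5), Mstn at 77.3 CPM (61.1 to 65.2) and Mfap4 at 3.56 CPM (0.992 to 1.62). IgG1 replicate 5 did so for Il6ra at 17.6 CPM (9.84 to 11.4), 3P10 replicate 1 for Aplnr at 13.4 CPM (8.74 to 9.74) and 3P10 replicate 5 for Pik3r1 at 67.0 CPM (31.7 to 39.3).

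The 3P10 against IgG1 difference was lower in muscle than in white fat for Gadd45a by a log2 value of -1.56, for Spns2 by -1.69 and for Ifit1 by -1.72, each past an adjusted p of 0.05 in the joint edgeR fit. With library number as a block over both tissues this held for Ifit1 only of the 3, and without the libraries numbered 14 or higher for 0 of them.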

How the results depend on the processing

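RLE factors and both other low-count filters kept the counts over all muscle genes within 1.5 times. Counts within lists moved more: with the term and no filter, fast-fibre rises went from 5 to 3, muscle fibre marker rises from 3 to 1 and rises of the NAD and amino acid list from 2 to 1, and with RLE factors falls of the myostatin and activin list went from 2 to 1. With the 10 libraries and the term, falls among glucocorticoid response genes went from 14 to 7 and among mTOR brakes from 5 to 2, and fast-fibre rises from 5 to 2. With the groups alone, 28 calls (12 higher, 16 lower) became 284 (119, 165) by DESeq2, which held all 28, 668 (338, 330) with the library number term, 7 (2, 5) with the 10 libraries fitted alone, 173 (104, 69) with those 10 and the term, and 18 (8, 10) without the 4 libraries numbered 14 or higher, 9 of them among the 28. With the term, 668 (338, 330) became 1104 (567, 537) by DESeq2, 663 of them shared. Leaving out 1 library gave 8 to 231 calls with the groups alone (2 to 108 higher, 6 to 123 lower) and 88 to 1708 with the term (58 to 826 higher, 30 to 882 lower). Fewer samples enter the fits on 10 or 11 libraries; the cause of the other changes was not tested. Differences between muscle and white fat went from 31 to 2 without the libraries numbered 14 or higher, 5 with library number as a block over both tissues and 216 with the term in each tissue.

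The labels do not say whether the replicate numbers pair the samples. In replicates 1, 2, 3 and 5 the IgG1 and 3P10 library numbers are consecutive (11 and 12, 14 and 15, 2 and 3, 8 and 9). In replicate 4 they are 23 and 6. Deviations of the same-numbered IgG1 and 3P10 libraries correlated at 0.33, 0.56, 0.50, -0.30 and 0.20, and not every library correlated best with its own number. The deviations were taken from group means without the library number term. IgG1 replicates 2 and 4 correlated at 0.56 and 0.60 with 3P10 replicate 2, all 3 numbered 14 or higher. These values therefore cannot tell pairing from library number. A replicate block gave 12 calls (3 higher, 9 lower) with the groups alone and 394 (208, 186) with the term, left 0 of the 4 falls of the glucocorticoid list with the groups alone and 14 with the term, and reversed the sign for Myh7 with the groups alone (0.12) and Myh4 with the term (-0.018).

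The sign of other values that did not pass also turned. With the groups alone, Trim63 was 0.078 and Myh7 0.018 without the higher-numbered libraries, and Myh4 was 0.0065 with the term and 0.021 with the 10 libraries and the term. With 1 library left out, Myh4 ranged from -0.173 to 0.028, Myh7 from -0.247 to 0.185 and Itch from -0.256 to 0.064 with the groups alone, and Myh4 from -0.105 to 0.082 and Myh7 from -0.323 to 0.194 with the term. Each described gene with each omitted library was counted as 1 comparison. Of these, 654 with the groups alone and 691 with the term kept their direction and side of the threshold. The call was lost in 148 and 128, gained in 21 and 6, and the sign turned in 7 and 5. The leave-out fits with the term were added after seeing the data. Depth limits genes of few reads, such as Foxs1 (39 in IgG1) and 9630001P10Rik (33).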
